A study of Mus musculus with 6 samples.

Results

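Reactive gliosis is the response of retinal glia to injury or stress. Müller cells, the main glia of the retina, and the astrocytes of the nerve fibre layer then raise intermediate filament proteins and release acute-phase proteins. Much of this response runs through cytokines of the interleukin-6 family, which bind receptors that share the gp130 chain and activate the transcription factor STAT3. STAT3 in turn drives its own inhibitor SOCS3, filament genes and secreted proteins. A panel of 10 genes of this programme was followed in the retina of *Yap* conditional knockout mice. The genes were the filaments *Gfap*, *Vim* and *Nes*, the oncostatin M receptor gene *Osmr*, *Stat3*, *Socs3*, the secreted proteins *Serpina3n* and *Lcn2*, the hyaluronan receptor gene *Cd44* and the galectin gene *Lgals3*. They form a fixed list of symbols, with no threshold on measured values, but were chosen with earlier results of these data known. All 10 were found among the 55421 genes of the count table.

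The samples were 6 retinas of 2-month-old mice, studied as bulk RNA-seq to ask what the loss of YAP, a transcriptional coactivator of the Hippo pathway, does to retinal gene expression. The 3 control retinas (YR612, YR613 and YR615) had the genotype Yapfl/fl, with floxed *Yap* and no Cre. The 3 *Yap* cKO retinas (YR711, YR713 and YR714) had the genotype Yapfl/fl;RaxCreERT2. All 6 animals received 4-hydroxytamoxifen (4OH-T) at postnatal days 10 and 14, so both groups carried the floxed alleles and the drug, and they differed in the Cre. *Rax* drives this inducible Cre in Müller cells and in the non-pigmented epithelium of the ciliary body, so the gene is not deleted in retinal neurons and vessels. The authors describe Müller cells as the only cells of the retina that express YAP. No control carried the Cre alone. The labels give a code for each sample, but no litter or batch, and the codes run by group.

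Total counts per retina ran from 24261799 to 35067068, and 16575 genes passed the filter on low counts and were tested, the 10 gliosis genes among them. Levels are given as TPM, a unit scaled by gene length and library size, and differences as log2 fold changes of *Yap* cKO over control with their standard error (SE) from edgeR's quasi-likelihood test. A gene was called changed at an adjusted p of at most 0.05 (Benjamini-Hochberg over all tested genes). The stricter criteria also asked for a 1.5-fold difference and for a mean of 5 TPM or more in either group, and 0.796% of all tested genes met them. With 3 retinas a group, the smallest two-sided p of an exact permutation test is 0.1, so calls rest on the fit across genes.

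*Yap1*, the deleted gene, stood at 9.48, 9.52 and 9.83 TPM in the control retinas and at 3.99, 3.76 and 3.94 TPM in the *Yap* cKO retinas. The groups did not overlap, and the log2 fold change was -1.36 (SE 0.093, adjusted p = 0.000282), in the direction of the labels. In bulk retina, fewer cells of a type and less RNA per cell cannot be told apart. As a check of the tissue, markers of retinal neurons and of Müller cells were read. All 13 neuronal markers were abundant enough to be tested. The glutamine synthetase gene *Glul*, the most abundant of the Müller cell markers, lay between 2551 and 3135 TPM over the 6 retinas.

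Because STAT3 binds the palindrome TTCNNNGAA, stretches at or before the RefSeq start of the genes that turned out to carry the largest differences, and of *Gfap*, are shown first. For these genes the RefSeq starts differ from the outer ends of the counted genes, which span several transcripts. The stretches of *Gfap*, *Socs3* and *Lgals3* therefore lie inside the counted gene and only that of *Serpina3n* lies before it. They are taken from RefSeq (build GRCm38.p6), 5′ to 3′ on the strand of the gene, with a match of the palindrome in capitals. For *Gfap* the stretch is chr11:102897194-102897222 on the minus strand, 29 bases around the start, in which the match spans the start itself. For *Socs3* it is chr11:117969367-117969616 on the minus strand, the 250 bases before the RefSeq start at 117969366. The bases after that start were not found in a *Socs3* transcript of the GENCODE annotation, the only one of the 10 for which this was so, and the counted gene reaches beyond it to 117970047, so the stretch is upstream by RefSeq only. For *Serpina3n* it is chr12:104406458-104406707 on the plus strand, also the 250 bases before the start. For *Lgals3* it is chr14:47373610-47373812 on the plus strand, 203 bases that end where a coding transcript of the GENCODE annotation begins.
Gfap: aggctattcaatgggggtgcTTCCAGGAA
Socs3: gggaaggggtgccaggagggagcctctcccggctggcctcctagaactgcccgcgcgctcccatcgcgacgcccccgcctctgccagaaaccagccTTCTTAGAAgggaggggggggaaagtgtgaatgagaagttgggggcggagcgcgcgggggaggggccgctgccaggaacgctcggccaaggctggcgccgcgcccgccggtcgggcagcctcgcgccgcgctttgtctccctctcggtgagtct
Serpina3n: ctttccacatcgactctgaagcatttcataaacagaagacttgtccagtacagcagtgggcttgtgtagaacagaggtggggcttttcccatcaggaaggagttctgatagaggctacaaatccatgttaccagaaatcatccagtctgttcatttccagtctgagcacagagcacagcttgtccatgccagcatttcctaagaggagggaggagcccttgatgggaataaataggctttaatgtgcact
Lgals3: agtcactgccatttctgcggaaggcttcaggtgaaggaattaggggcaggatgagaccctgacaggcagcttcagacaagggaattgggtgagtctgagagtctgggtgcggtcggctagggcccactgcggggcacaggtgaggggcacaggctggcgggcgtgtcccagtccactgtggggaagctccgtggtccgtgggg

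Motifs were searched on both strands in windows of 300 bases around the RefSeq start, which were found for all 10 genes. TTCNNNGAA was present in 8.30% of 32851 such windows over all genes and in 2 of the 10, *Gfap* (TTCCAGGAA) and *Socs3* (TTCTTAGAA, from 154 to 146 bases before the RefSeq start). The TEAD motif, CATTCC or GGAATG on the other strand, which is read by the DNA-binding partners of YAP, was in 14.7% of all windows and in the window of *Stat3* alone among the 10, with 2 matches. The AP-1 motif TGANTCA was in 7.81% of all windows and in that of *Osmr*. No match was found in the windows of *Serpina3n* and *Lgals3*, which says only that these letters are not in that stretch. No match of one motif overlapped a match of another in the 10 windows.

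As a group, the gliosis genes were not higher in *Yap* cKO retinas. None of the 10 was called higher (background 0.501% of all tested genes) and 2 were called lower, *Serpina3n* and *Lgals3* (background 0.989%). Both also met the stricter criteria, which 0.585% of all tested genes met in the lower direction and 0.211% in the higher. The log2 fold change was below 0 for 8 of the 10 genes, against 49.7% of all tested genes, and its median over the 10 was -0.30, against 0.0017 over all genes. By TPM, the 3 *Yap* cKO retinas lay below all 3 control retinas for *Socs3*, *Serpina3n* and *Lgals3* (background 9.04%) and above them for *Stat3* (background 15.2%). By TMM-scaled CPM (counts scaled by library size and its TMM factor, but not by gene length), the scale of the test, *Stat3* overlapped between the groups and *Osmr* was the 4th gene with all *Yap* cKO retinas below the control (background 12.4%), while none lay above (background 12.3%).

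**Figure D1:**
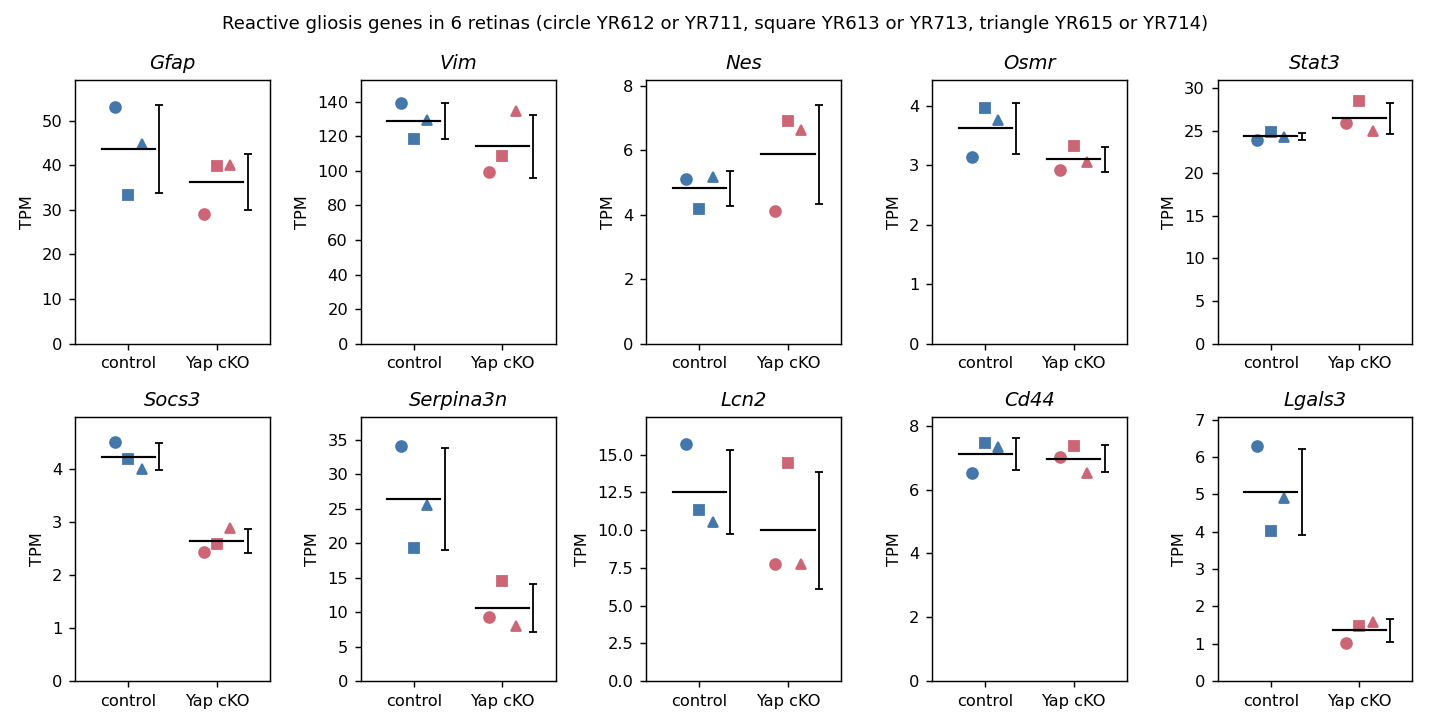
TPM (linear axis from 0, 1 panel per gene) of the 10 gliosis genes in each of the 6 retinas, 1 point per retina, with a line at the mean of each group of 3 and the SD as a bar beside it. *Lgals3*, *Serpina3n* and *Socs3* have all 3 *Yap* cKO points below the control points, and *Gfap* and *Vim* overlap between the groups.

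The filament genes were read first. *Gfap* encodes the intermediate filament protein that astrocytes always hold and Müller cells take up when stressed, and it lies at chr11:102887336-102900912 (minus strand). It stood at 53.0, 33.4 and 44.9 TPM in the control retinas and at 29.1, 39.9 and 40.0 TPM in the *Yap* cKO retinas. The highest value was that of a control retina, YR612, the lowest that of the *Yap* cKO retina YR711, and the other 4 were intermixed. The log2 fold change was -0.33 (SE 0.19, adjusted p = 0.333), with a 95% interval from -0.75 to 0.10.

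*Vim* encodes vimentin, the filament that resting Müller cells already hold, at chr2:13573927-13582826. It was the most abundant of the 10 genes, with 139, 118 and 129 TPM in the control retinas and 99.6, 109 and 135 TPM in the *Yap* cKO retinas. YR714 lay within the control range and the other *Yap* cKO retinas below it, and the log2 fold change of -0.23 (SE 0.13, adjusted p = 0.327) did not pass. *Nes* encodes nestin, a filament of progenitors that glia can express again after injury, at chr3:87971078-87980451. Its levels were low, 5.10, 4.18 and 5.15 TPM in the control and 4.10, 6.90 and 6.61 TPM in the *Yap* cKO retinas. YR711 was the lowest of all 6 retinas and the other *Yap* cKO retinas were the highest, and the log2 fold change was 0.23 (SE 0.20, adjusted p = 0.516).

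Among the proteins that partner these filaments, 8 of 8 listed genes were tested and 0 were called in either direction (background 1.49%). Their median log2 fold change was -0.0035. The gene with the smallest p was *Plec*, for plectin, which ties filaments to junctions. It read 8.42, 8.18 and 6.67 TPM in the control and 8.82, 10.9 and 10.1 TPM in the *Yap* cKO retinas, with a log2 fold change of 0.30 (adjusted p = 0.192), which became -0.0021 once a trend with gene length was removed.

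The signalling genes came next. *Osmr*, at chr15:6813577-6874969, encodes the receptor chain that pairs with gp130 to bind oncostatin M. It was the least abundant of the 10 in control retinas, at 3.14, 3.96 and 3.77 TPM, and read 2.92, 3.32 and 3.06 TPM in the *Yap* cKO retinas. The control retina YR612 lay among the *Yap* cKO values, and the log2 fold change of -0.28 (SE 0.12) had an unadjusted p of 0.0371 and an adjusted p of 0.206. An unadjusted p under 0.05 was reached by 21.4% of all tested genes.

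*Stat3*, the transducer of these receptors, lies at chr11:100885098-100939540 and overlaps an exon of *Stat5a* on the other strand, which strand-specific counting keeps apart. Its level was the steadiest of the panel in control retinas, at 23.9, 24.8 and 24.3 TPM, and stood at 25.9, 28.5 and 24.9 TPM in the *Yap* cKO retinas. The *Yap* cKO values were the higher ones by TPM, but the log2 fold change was 0.06 (SE 0.075, 95% interval -0.11 to 0.23, adjusted p = 0.651), and it turned to -0.07 after correction for gene length. RNA level says nothing of STAT3 phosphorylation, which was not measured here.

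*Socs3*, at chr11:117966079-117970047, encodes the inhibitor that STAT3 induces against its own receptors. It read 4.51, 4.19 and 4.01 TPM in the control retinas, from 86, 83 and 89 counts, and 2.44, 2.58 and 2.89 TPM in the *Yap* cKO retinas, from 45, 65 and 57 counts. The groups did not overlap and the spread within each was small. The log2 fold change was -0.74 (SE 0.16, 95% interval -1.10 to -0.38) with an unadjusted p of 0.00119, but the adjusted p of 0.0610 missed the threshold. DESeq2's Wald test gave an adjusted p of 0.0337 for the same gene, and edgeR's likelihood ratio test 0.00444.

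The wider gp130 and JAK-STAT pathway was read from a list of 27 further ligands, receptors, kinases, transducers and inhibitors. Of these, 21 were tested, 0 were called higher (background 0.501%) and 1 was called lower (background 0.989%), and the median log2 fold change was 0.10, with 7 of the 21 below 0 (background 49.7%). The gene called lower was *Ctf1*, for cardiotrophin-1, a ligand of the family. It stood at 8.89, 7.28 and 7.49 TPM in the control and at 3.26, 3.91 and 4.73 TPM in the *Yap* cKO retinas, without overlap, and fell by 1.04 on the log2 scale (SE 0.19, adjusted p = 0.0352). Its call was lost without YR612 (adjusted p = 0.160), YR615 (0.138), YR711 (0.0767) or YR713 (0.174). *Il6* itself had no count in any retina.

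The secreted proteins held the first of the 2 genes called. *Serpina3n*, at chr12:104406729-104414329, encodes an acute-phase serine protease inhibitor that marks reactive astrocytes and Müller cells. It stood at 34.1, 19.4 and 25.6 TPM in the control retinas (465, 274 and 406 counts) and at 9.25, 14.5 and 8.01 TPM in the *Yap* cKO retinas (122, 261 and 113 counts). The lowest control retina, YR613, lay above the highest *Yap* cKO retina, YR713, and both groups had a wide spread. *Serpina3n* fell by 1.37 on the log2 scale (SE 0.26, 95% interval -1.96 to -0.78, adjusted p = 0.0412), so that the control level was 2.58 times that of the *Yap* cKO. In control retinas *Serpina3n* ranked above *Stat3* by mean TPM, and in *Yap* cKO retinas below it.

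The call on *Serpina3n* was narrow. It was lost when YR612 (log2 fold change -1.12, adjusted p = 0.160), YR615 (-1.40, 0.156) or YR711 (-1.28, 0.0974) was left out. It was also lost with sex, read from *Xist* and *Ddx3y*, as a covariate (-1.40, adjusted p = 0.0620). By that reading, 2 control retinas and 1 *Yap* cKO retina were male. By TPM, the male *Yap* cKO retina (9.25) lay below both male control retinas (34.1 and 19.4), and both female *Yap* cKO retinas (14.5 and 8.01) below the female control retina (25.6). Its neighbours in the *Serpina3* cluster are close copies of one another, so reads can be lost or split among them. Of 7 neighbours listed only *Serpina3g* was abundant enough to be tested, at 1.22, 1.11 and 1.55 TPM in the control and 2.01, 1.58 and 1.95 TPM in the *Yap* cKO retinas (log2 fold change 0.44, adjusted p = 0.324).

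*Lcn2*, at chr2:32384633-32388252, encodes lipocalin 2, which binds bacterial siderophores and is another acute-phase marker of reactive glia. Its levels were 15.7, 11.3 and 10.6 TPM in the control and 7.76, 14.5 and 7.76 TPM in the *Yap* cKO retinas. YR711 and YR714 were the lowest of the 6 retinas and YR713 lay within the control range, and the log2 fold change of -0.38 (SE 0.26, adjusted p = 0.414) did not pass. YR713 was also the highest *Yap* cKO retina for *Serpina3n*. Among the receptors and partners of lipocalin 2, 3 of 3 were tested and 0 were called (background 1.49%). *Mmp9*, a protease that lipocalin 2 binds, had the smallest p and stood at 30.3, 29.8 and 33.6 TPM in the control and 36.9, 35.8 and 38.3 TPM in the *Yap* cKO retinas (log2 fold change 0.19, adjusted p = 0.250).

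The surface and carbohydrate-binding genes closed the panel. *Cd44*, at chr2:102811141-102901665, encodes the hyaluronan receptor found on Müller cell microvilli. It read 6.53, 7.45 and 7.34 TPM in the control and 7.02, 7.38 and 6.52 TPM in the *Yap* cKO retinas. The groups were intermixed, and the log2 fold change of -0.08 (SE 0.10) had a 95% interval from -0.31 to 0.14 (adjusted p = 0.646). Of 9 ligands and partners of CD44 listed, 7 were tested and 0 were called (background 1.49%). The smallest p was that of *Ezr*, for ezrin, which links CD44 to actin, at 25.9, 23.4 and 22.5 TPM in the control and 14.04, 16.5 and 19.2 TPM in the *Yap* cKO retinas (log2 fold change -0.58, adjusted p = 0.0741). *Ezr* was called lower in 6 of the 14 alternatives, those with no filter (adjusted p = 0.00018), DESeq2 (0.00543), the likelihood ratio test (0.00827) and the length correction (0.0435), and without YR613 (0.0386) or YR714 (0.0198).

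*Lgals3* had the largest fold change of the 10. It lies at chr14:47367751-47386160 and encodes galectin-3, a lectin that binds galactosides and is made by phagocytes and by reactive glia. It stood at 6.28, 4.01 and 4.90 TPM in the control retinas (77, 51 and 70 counts) and at 1.01, 1.48 and 1.58 TPM in the *Yap* cKO retinas (12, 24 and 20 counts). The lowest control retina was well above the highest *Yap* cKO retina. *Lgals3* fell by 1.94 on the log2 scale (SE 0.27, 95% interval -2.54 to -1.34, adjusted p = 0.00999), a control level 3.83 times that of the *Yap* cKO, and moved from rank 7 to rank 10 of the panel by mean TPM. Its control mean of 5.06 TPM was just above the minimum of 5, so that without YR612 it missed the stricter criteria, and without YR615 its adjusted p was 0.0592. Of 6 other galectins and their binding protein, all were tested and 0 were called (background 1.49%). *Lgals8*, with the smallest p, read 29.2, 32.7 and 29.7 TPM in the control and 37.3, 41.2 and 35.9 TPM in the *Yap* cKO retinas (log2 fold change 0.26, adjusted p = 0.130).

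**Figure D2:**
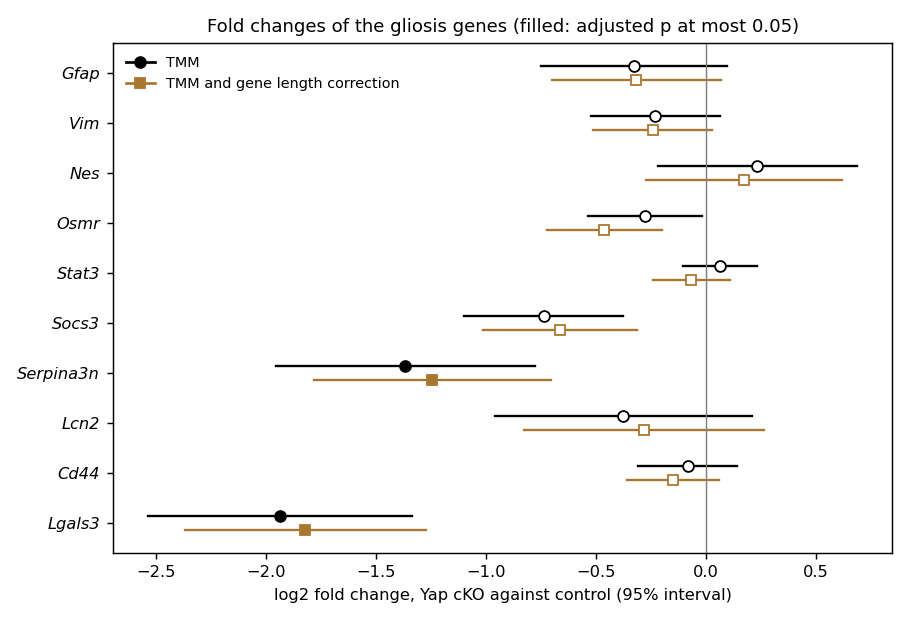
log2 fold change of *Yap* cKO over control for the 10 gliosis genes, with the 95% interval, under TMM scaling (circles) and with a gene length correction added (squares). Only *Serpina3n* and *Lgals3* are filled, for an adjusted p of at most 0.05, and the correction leaves them at -1.25 and -1.82.

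Gene length moved with the libraries and is given beside these values. The rank correlation of relative expression with length across genes was -0.413 and -0.405 in YR612 and YR615, -0.151 in YR714, 0.172 in YR613, and 0.396 and 0.385 in YR711 and YR713. The median log2 fold change of all tested genes ran from -0.165 in the shortest 10th of genes to 0.213 in the longest. *Serpina3n* (exonic length 2064 bases) and *Lgals3* (1858 bases) are the shortest of the panel, and *Osmr* (12113 bases) the longest. With the trend removed in each retina, *Lgals3* stayed called (log2 fold change -1.82, adjusted p = 0.00469), as did *Serpina3n* (-1.25, 0.0264), while *Socs3* (-0.67, 0.0532) and *Osmr* (-0.46, 0.0671) came near the threshold from outside.

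**Figure D3:**
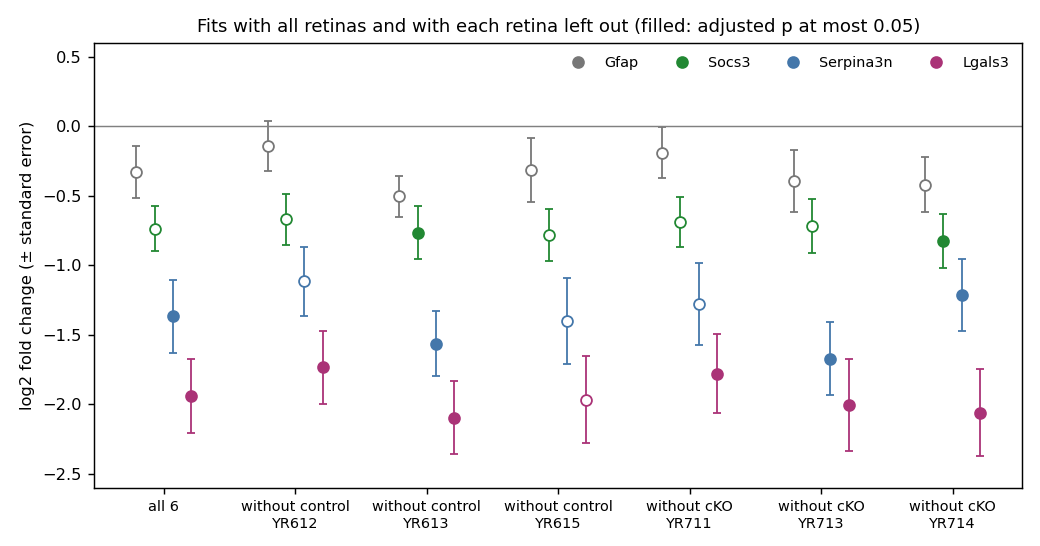
log2 fold change (with its SE) of *Gfap*, *Socs3*, *Serpina3n* and *Lgals3* with all 6 retinas and with 1 retina left out in turn, filled where the adjusted p was at most 0.05. *Lgals3* stays between -2.10 and -1.74 and *Serpina3n* between -1.67 and -1.12, and *Gfap* moves between -0.50 and -0.14.

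How the genes varied from retina to retina was described by the deviation of each retina from the mean of the gene over all 6, on log2 CPM. YR612 was the highest retina for *Gfap*, *Vim*, *Socs3*, *Serpina3n*, *Lcn2* and *Lgals3*, and YR711 the lowest for *Gfap*, *Vim*, *Nes*, *Osmr*, *Socs3*, *Lcn2* and *Lgals3*. Over the 6 retinas, which share the difference between the groups, Pearson's r was 0.986 for *Socs3* with *Lgals3*, 0.930 for *Serpina3n* with *Lgals3*, 0.872 for *Socs3* with *Serpina3n* and 0.865 for *Gfap* with *Vim*. For *Stat3* with *Socs3* it was -0.491. These values describe 6 points and carry no test.

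**Figure D4:**
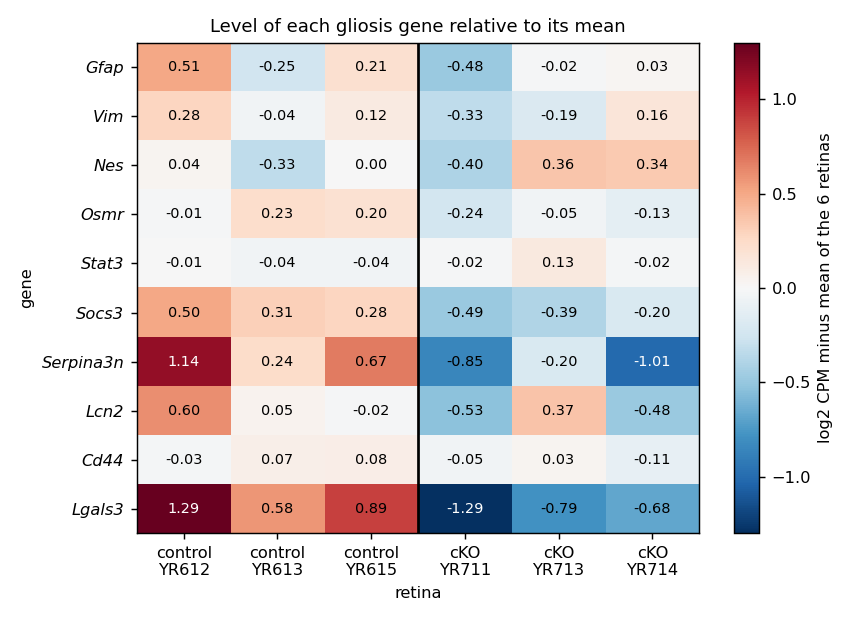
Deviation of each retina from the mean over the 6 retinas, in log2 CPM, for each gliosis gene (rows) and retina (columns). *Lgals3* runs from 1.29 in YR612 to -1.29 in YR711, and *Cd44* and *Stat3* stay within 0.13 of their mean.

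The tested genes whose pattern over the 6 retinas was most like that of *Gfap* were *Enkd1* (r = 0.9994), *Gm2830* (0.9968) and *Plekhh3* (0.9935). For *Serpina3n* they were *Gm6472* (0.9931), *4930594M22Rik* (0.9923) and *Tmbim1* (0.9899), and for *Lgals3* they were *Slc25a20* (0.9964), *Cnga1* (0.9953) and *Trip6* (0.9946). They were the 3 highest of 16575 genes in each case and carry no test.

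Lists of genes known to mark reactive astrocytes, or linked to stress of the retina, were read beside the panel, with the 10 genes themselves left out. Of 7 pan-reactive genes, which rise in astrocytes after several kinds of injury, 4 were tested, 0 were called higher (background 0.501%) and 2 were called lower (background 0.989%), with a median log2 fold change of -0.48. *S1pr3*, a sphingosine-1-phosphate receptor, stood at 42.9, 42.3 and 37.8 TPM in the control and 10.7, 10.8 and 7.51 TPM in the *Yap* cKO retinas, and fell by 2.14 (SE 0.13, adjusted p = 0.000216). *Cp*, for the ferroxidase ceruloplasmin, stood at 87.6, 99.5 and 92.1 TPM in the control and 67.7, 71.9 and 57.8 TPM in the *Yap* cKO retinas, and fell by 0.56 (SE 0.086, adjusted p = 0.0190). For both, the *Yap* cKO retinas lay below all control retinas (background 9.04%).

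All 11 genes of the A1 list, induced in astrocytes by inflammatory signals, were tested, and 0 were called higher (background 0.501%) and 2 lower (background 0.989%), around a median of 0.03. *Serping1*, the inhibitor of complement C1, read 27.0, 20.4 and 28.4 TPM in the control and 7.68, 12.3 and 8.37 TPM in the *Yap* cKO retinas, a fall by 1.47 (SE 0.20, adjusted p = 0.00966). *Fbln5*, a fibulin of elastic fibres, read 1.86, 2.01 and 2.45 TPM in the control and 1.27, 1.297 and 1.12 TPM in the *Yap* cKO retinas, a fall by 0.83 (SE 0.16, adjusted p = 0.0421). Of the 12 genes of the A2 list, induced by ischaemia, 9 were tested and 0 were called in either direction (background 1.49%), with a median of 0.13. The smallest p was that of *Emp1*, a membrane protein, at 0.536, 0.467 and 0.636 TPM in the control and 0.607, 1.10 and 0.789 TPM in the *Yap* cKO retinas (log2 fold change 0.57, adjusted p = 0.263).

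Of 14 genes linked to stress of the retina, 13 were tested, 0 were called higher (background 0.501%) and 2 were called lower (background 0.989%). A log2 fold change below 0 was found for 10 (background 49.7%), with a median of -0.33. Bulk RNA does not show which cells made these transcripts. *Edn2*, for the peptide endothelin 2, stood at 10.9, 10.8 and 12.3 TPM in the control and 3.21, 5.27 and 6.21 TPM in the *Yap* cKO retinas, a fall by 1.25 (SE 0.22, adjusted p = 0.0319). *A2m*, for the protease inhibitor alpha-2-macroglobulin, stood at 17.9, 16.5 and 14.8 TPM in the control and 6.09, 10.4 and 9.004 TPM in the *Yap* cKO retinas, with a log2 fold change of -1.001 (SE 0.18, adjusted p = 0.0322). Over all lists related to gliosis, with each gene counted once, 82 of 103 genes were tested. Of these, 0 were called higher (background 0.501%) and 7 were called lower, or 8.54% (background 0.989%). The lists were chosen with earlier results of these data known, and the part of that choice in this share was not tested. Without YR612, and likewise without YR615, 1 gene of these lists was called, *S1pr3*, against 12 without YR613 and 12 without YR714. With sex as a covariate, *Ctf1* (adjusted p = 0.0618) and *Fbln5* (adjusted p = 0.0580) missed the threshold. *Fbln5* also missed it without YR711 (0.0823) or YR713 (0.165), and *Edn2* without YR713 (0.127).

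**Figure D5:**
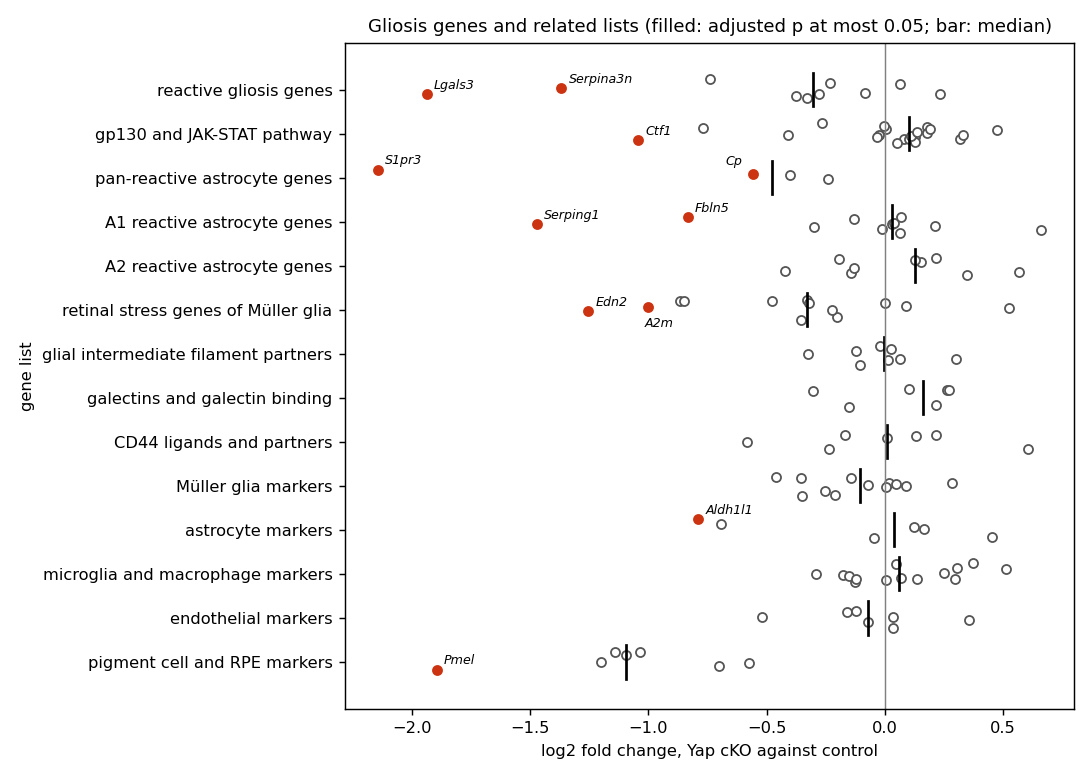
log2 fold change of *Yap* cKO over control for every tested gene of the gliosis panel and of 13 related or marker lists, 1 point per gene, with a bar at the median of each list and genes called at an adjusted p of at most 0.05 filled and named. No called gene of the gliosis, gp130 or reactive astrocyte lists lies to the right of 0.

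Markers of the cells that could carry this RNA were read with the same test. Of 12 Müller cell markers, 12 were tested and 0 were called (background 1.49%), with a median log2 fold change of -0.11. Their summed level was 7404, 7508 and 7605 TPM in the control and 7064, 6594 and 6764 TPM in the *Yap* cKO retinas, with *Glul* the largest part. *Rlbp1*, a retinoid-binding protein of Müller cells, had the smallest p, with 908, 933 and 967 TPM in the control and 775, 718 and 789 TPM in the *Yap* cKO retinas (log2 fold change -0.36, adjusted p = 0.0540). *Rlbp1* was called lower in 7 of the 14 alternatives, those with no filter (adjusted p = 0.00521), DESeq2 (0.00195), the likelihood ratio test (0.00677), limma-voom (0.0487) and the length correction (0.0460), and without YR613 (0.0285) or YR714 (0.0357). The summed level was thus lower in each *Yap* cKO retina, but the markers went both ways. The log2 fold change was below 0 for 7 and above 0 for 5 of the 12, and by TPM the groups did not overlap for 3, of which 2 were above control in *Yap* cKO (background 15.2%) and 1 below (background 9.04%). The potassium channel gene *Kcnj10*, chosen after its values were seen, was 1 of those above, with 69.0, 80.8 and 66.3 TPM in the control and 97.9, 89.6 and 85.9 TPM in the *Yap* cKO retinas (log2 fold change 0.28, adjusted p = 0.126). The part of these levels in the values of *Lgals3* and *Serpina3n* was not tested.

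All 6 astrocyte markers were tested, with a median of 0.04. By TPM, all *Yap* cKO retinas lay above the control for 2 of them (background 15.2%) and below it for 2 (background 9.04%). In the test, 1 was called lower (background 0.989%). It was *Aldh1l1*, a folate enzyme, at 15.8, 17.1 and 15.7 TPM in the control and 9.74, 10.1 and 9.43 TPM in the *Yap* cKO retinas, a fall by 0.79 (SE 0.092, adjusted p = 0.00437). The most abundant, *S100b*, stood at 41.8, 37.5 and 40.5 TPM in the control and 47.5, 45.1 and 43.2 TPM in the *Yap* cKO retinas, and *Pax2* lay between 0.231 and 0.514 TPM. Their summed level was 98.3, 89.5 and 94.1 TPM in the control and 96.4, 104 and 102 TPM in the *Yap* cKO retinas, overlapping between the groups.

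Galectin-3 is also made by microglia and macrophages. All 14 of their markers were tested and 0 were called (background 1.49%), with a median of 0.06. Their summed level was 226, 201 and 243 TPM in the control and 196, 226 and 210 TPM in the *Yap* cKO retinas. Lipocalin 2 is also stored by neutrophils. None of 7 neutrophil markers was abundant enough to be tested, *Ltf* and *Camp* had no count in any retina, and the summed level was at most 3.97 TPM. That level was 1.74, 1.47 and 3.97 TPM in the control and 0.600, 1.21 and 0.371 TPM in the *Yap* cKO retinas, most of it *S100a9*. Whether microglia, macrophages or neutrophils carried part of the *Lgals3* or *Lcn2* RNA was not tested.

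Markers of the ciliary body, and those of pigment cells and retinal pigment epithelium, lay mostly below control. All 7 ciliary body markers were tested, and 5 had a log2 fold change below 0 (background 49.7%). By TPM, all *Yap* cKO retinas lay below the control for 4 (background 9.04%) and above it for 1 (background 15.2%). In the test, 3 were called lower (background 0.989%), although these were listed with earlier results of the data known. They were the proteoglycan gene *Optc* (log2 fold change -3.41), the anion exchanger gene *Slc26a4* (-5.03) and the neuropeptide gene *Npvf* (-6.17, with no count in YR711 and YR714). With 1 retina left out, *Optc* ranged from -4.23 to -3.12, *Slc26a4* from -5.84 to -4.69 and *Npvf* from -8.72 to -5.73. All 3 were called in each of these fits. The most abundant, *Aqp1*, was the one that lay above, at 224, 227 and 238 TPM in the control and 262, 316 and 297 TPM in the *Yap* cKO retinas. The summed level overlapped between the groups, with 332, 320 and 332 TPM in the control and 286, 359 and 322 TPM in the *Yap* cKO retinas. Most of that sum was *Aqp1*, so it says little of the other ciliary body markers. Of 7 markers of pigment cells and retinal pigment epithelium, all had a log2 fold change below 0 (background 49.7%), with a median of -1.10. By TPM, all *Yap* cKO retinas lay below the control for 6 of the 7 (background 9.04%). Of the 7, 1 was called lower (background 0.989%), the melanosome gene *Pmel*. It stood at 26.3, 19.7 and 26.1 TPM in the control and 4.30, 11.5 and 3.96 TPM in the *Yap* cKO retinas (log2 fold change -1.89, adjusted p = 0.0347). Its call was lost without YR612 (adjusted p = 0.160), YR615 (0.157) or YR711 (0.0717). Their summed level was 597, 634 and 617 TPM in the control and 179, 350 and 564 TPM in the *Yap* cKO retinas, most of it *Ttr*. Whether ciliary body or pigment cells carried part of the *Serpina3n*, *Lgals3*, *Serping1* or *S1pr3* RNA was not tested.

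Other cell types were read the same way. Of 6 fibroblast markers, 4 were tested and 1, the collagen gene *Col1a2*, was called lower (background 0.989%). The median log2 fold change of the tested fibroblast markers was -0.03, and the highest was 0.08. *Col1a2* stood at 3.09, 3.11 and 4.37 TPM in the control and 0.794, 1.06 and 0.577 TPM in the *Yap* cKO retinas (log2 fold change -2.16, adjusted p = 0.00236). The most abundant fibroblast marker, *Pdgfra*, which was also on the astrocyte list, stood between 6.37 and 8.64 TPM. The summed level was 13.0, 10.8 and 13.1 TPM in the control and 8.98, 10.8 and 7.80 TPM in the *Yap* cKO retinas. Of 7 endothelial markers, 7 were tested and 0 were called (background 1.49%), with a median of -0.07. Among these markers the junction gene *Cldn5* had the smallest p (log2 fold change -0.52, adjusted p = 0.181). *Cldn5* was called lower with no filter (adjusted p = 0.00154) and without YR613 (0.0199). The summed level of the endothelial markers was 229, 224 and 218 TPM in the control and 249.997, 211 and 190 TPM in the *Yap* cKO retinas, with *Kdr* the most abundant. Of 6 lens and cornea markers, 2 were tested and 0 were called (background 1.49%). The summed level was at most 4.27 TPM, with *Bfsp2* the most abundant. The summed level lay lower in all 3 *Yap* cKO retinas, at 2.84, 1.603 and 2.91 TPM, than in the control retinas, at 4.27, 2.98 and 3.96 TPM. Of 13 markers of retinal neurons, 13 were tested and 1 was called, *Grm6*, which was higher (background 0.501%). *Grm6*, the glutamate receptor of ON bipolar cells, stood at 77.3, 80.3 and 77.4 TPM against 56.0, 56.9 and 51.6 TPM in the control (log2 fold change 0.46, adjusted p = 0.0249). Its call was lost without YR612 (adjusted p = 0.0785), YR615 (0.131), YR711 (0.0539) or YR713 (0.130).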

How the data were processed

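RNA-seq counts of 3 control and 3 *Yap* cKO retinas were analysed, grouped by genotype as labelled. Reads from stranded libraries were mapped by the authors with STAR 2.7.3a (GRCm38), and featureCounts 1.6.2 counted them per gene (strand setting 2). The deposited values are counts without normalization, and the header names annotation release 98. Symbols came from the reference annotation for 55154 of 55421 genes, and 30129 genes had a count. TPM was computed from counts and the exonic length deposited with them.

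Tests used R 4.3.3 with edgeR 4.0.16 (filterByExpr, TMM, glmQLFit and glmQLFTest), with Benjamini-Hochberg adjustment over 16575 genes. The SE is the absolute log2 fold change over the square root of F. Nothing says that the animals came from separate litters. Counting error enters through the negative binomial model (common dispersion 0.0126). On simulated data, 199 of 200 genes changed by 1.5 on the log2 scale met the stricter criteria. The changed genes were drawn from genes more abundant than *Lgals3* or *Socs3*, and all genes shared a single dispersion. The simulation therefore gives no detection rate for the low genes of the panel or for genes with a wider spread.

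The members and lists were chosen with earlier results of these data known. Named genes were the 10 members, *Yap1*, in each list the genes passing the threshold (or that with the smallest p), the most abundant marker of each marker list, and the 3 genes most like *Gfap* and each called member. The most abundant marker of 2 lists is not reported here. The overlap of groups by TPM was added after values were seen. Alternatives were other size factors (median ratio or library size), no filter, DESeq2 1.42.0, edgeR's likelihood ratio test, limma 3.58.1 (voom), a length correction (loess, span 0.3), sex as a covariate, and each retina left out.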

Additional observations from a re-analysis of the deposited data

How the results depend on the processing

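Over 14 alternatives, *Lgals3* was called in 13 and *Serpina3n* in 10, with *Lgals3* between -2.10 and -1.74 and *Serpina3n* between -1.67 and -1.12 on the log2 scale, and no alternative called a gliosis gene higher. *Socs3* was called in 5, with adjusted p from 0.00444 to 0.256. The number of gliosis genes called lower was 4 with no filter on low counts (*Gfap* and *Socs3* added, *Gfap* at -0.33 with an adjusted p of 0.0264) and 1 with sex as a covariate, where 1 met the stricter criteria. With 1 retina left out it ranged from 0 to 3, and from 0 to 2 under the stricter criteria. It was 3 without YR613 and without YR714, 1 without YR612 and without YR711, and 0 without YR615. The stricter criteria left 0 without YR612 or YR615. Genes called among all tested were 247, against 1865 with no filter on low counts, 892 by DESeq2, 1025 by the likelihood ratio test, 458 with the length correction, 151 with sex as a covariate, and 49 to 1490 with 1 retina left out (56 without YR612, 1490 without YR613, 49 without YR615, 156 without YR711, 93 without YR713 and 992 without YR714). Genes called in the related lists were 7, against 18 with no filter and 1 to 12 with 1 retina left out (1 without YR612 or YR615, 4 without YR713, 12 without YR613 or YR714). *Stat3* (-0.067) and *Plec* (-0.0021) changed sign with the length correction. The causes of these shifts were not tested. *Yap1* stayed between -1.39 and -1.33 and was called with each retina left out. No paired analysis was possible because the labels name no pairs and the sample codes are not shared between the groups. At the depth of *Socs3* and *Lgals3*, with 12 to 89 counts a retina, counting error adds to the spread between animals.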
